A study of Homo sapiens with 12 samples.

Results

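The RNA of 9 genes for platelet alpha granule proteins was followed in K562 cells: PF4, PPBP, VWF, THBS1, SELP, MMRN1, F13A1, SPARC and PDGFA. The genes were taken by symbol from the deposited tables of read counts and FPKM, which list 19225 genes, and all 9 were found. K562 is an established human line derived from chronic myeloid leukaemia, and it can be driven in culture towards megakaryocytes or red cells. The cells had the genotype WT and were transfected with siRNA against RHOB (siRHOB) or a negative control siRNA (siNC), then kept for 3 days in megakaryocyte differentiation medium (MK medium) or in growth medium. The 4 groups, MK medium with siRHOB, MK medium with siNC, growth medium with siRHOB and growth medium with siNC, had 3 libraries each. What the MK medium contained is not stated in the labels. The labels do not say whether the 3 libraries of a group came from separate cultures, so the p-values measure the spread between these libraries, which may be technical.

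Alpha granules are the most abundant secretory granules of platelets and are built in the megakaryocyte, the bone marrow cell that sheds platelets. They hold adhesive proteins, chemokines, growth factors and clotting proteins, and release them when a platelet is activated. Some of this cargo is made by the megakaryocyte itself and some is taken up from plasma. The measurements here are of RNA, so they say how much transcript was present and nothing of protein in granules. In bulk RNA, a larger share of cells with a transcript and more transcript per cell cannot be told apart.

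In MK medium the 9 genes split into 3 tiers of abundance. THBS1, PDGFA and SPARC were at 18.7 FPKM or more in every library, MMRN1 and PPBP at 1.05 to 3.36 FPKM, and VWF, SELP, PF4 and F13A1 at 0.732 FPKM or less. FPKM divides a gene's reads by its length and by the library's total, so it allows levels to be compared between genes. In growth medium only SPARC and PDGFA were above 1 FPKM in every library, and VWF, SELP, PF4 and F13A1 had 0 reads in all 6 libraries.

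RefSeq promoters of build GRCh38.p14 were found for 7 of the 9 genes, with 11 start sites in all, and there was no entry for PF4 and VWF. The 250 bases before the start are printed 5′ to 3′ for 4 genes with 1 start each, chosen to span the range of levels: the most abundant (THBS1), the most abundant chemokine (PPBP), the granule membrane gene (SELP) and a gene with almost no reads (F13A1). Capitals mark matches on either strand to GATAA, the core bound by GATA factors, to AGGAAG, a core bound by ETS factors, and to TATAAA, the TATA box. TGANTCA, the site of AP-1, was also searched and matched none of the 11 windows.
PPBP, chr4:73988191-73988440, minus strand: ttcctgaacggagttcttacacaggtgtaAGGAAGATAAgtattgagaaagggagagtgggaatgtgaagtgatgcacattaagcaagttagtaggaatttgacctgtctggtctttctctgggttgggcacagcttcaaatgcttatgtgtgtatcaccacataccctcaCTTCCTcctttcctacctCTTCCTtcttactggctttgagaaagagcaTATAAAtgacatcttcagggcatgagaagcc
THBS1, chr15:39580829-39581078, plus strand: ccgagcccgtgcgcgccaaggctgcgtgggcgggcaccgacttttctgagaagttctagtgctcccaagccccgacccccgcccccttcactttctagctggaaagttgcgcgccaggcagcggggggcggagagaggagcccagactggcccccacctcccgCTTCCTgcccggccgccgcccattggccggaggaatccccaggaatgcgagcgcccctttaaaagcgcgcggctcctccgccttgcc
SELP, chr1:169630125-169630374, minus strand: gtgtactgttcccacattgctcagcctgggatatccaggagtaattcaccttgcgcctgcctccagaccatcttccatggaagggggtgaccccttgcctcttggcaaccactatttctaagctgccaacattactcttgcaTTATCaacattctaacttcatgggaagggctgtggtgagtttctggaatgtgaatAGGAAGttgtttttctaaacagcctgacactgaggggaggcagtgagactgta
F13A1, chr6:6320663-6320912, minus strand: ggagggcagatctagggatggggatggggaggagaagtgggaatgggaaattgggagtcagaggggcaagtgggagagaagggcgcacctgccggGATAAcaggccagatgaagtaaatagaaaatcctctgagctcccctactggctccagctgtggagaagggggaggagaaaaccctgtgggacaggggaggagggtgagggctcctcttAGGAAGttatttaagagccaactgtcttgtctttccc
The PPBP window held 1 GATAA, 3 AGGAAG and 1 TATAAA, with the GATAA sharing bases with 1 of the AGGAAG matches. The THBS1 window held 1 AGGAAG, and the SELP and F13A1 windows each held 1 GATAA and 1 AGGAAG. The SPARC window held none of the 4 motifs. The first MMRN1 start had none and the second had 1 GATAA and 1 AGGAAG. Of the 4 PDGFA starts, the first had 1 AGGAAG, the fourth 1 GATAA and the others no match. Over all 35116 promoter windows of that length, 20.4% held GATAA, 28.7% AGGAAG, 10.7% TATAAA and 6.57% TGANTCA. A match describes the letters of the window and is not a measured binding site.

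Library totals were 34412558 to 41872422 reads in MK medium and 38653567 to 54048161 in growth medium. RHOB, a small GTPase of the actin cytoskeleton and the target of the siRNA, had 12.6, 15.5 and 22.1 CPM (reads scaled to a common library size) in the MK libraries labelled siRHOB, against 12.8, 10.1 and 32.7 CPM in the MK siNC libraries. In growth medium RHOB had 3.17, 3.30 and 0.465 CPM in the libraries labelled siRHOB, against 6.20, 4.68 and 1.42 CPM in siNC libraries. Between siRHOB and siNC, RHOB did not pass the test in either medium, with log2 differences of -0.15 ± 0.69 in MK medium and -0.83 ± 0.72 in growth medium (SE, edgeR adjusted p = 1 in both). Between libraries with the same number, RHOB with siRHOB was below siNC in 3 of 3 pairs in growth medium and in 2 of 3 in MK medium, and with the replicate number as a block it did not pass either, at -0.82 ± 0.83 in growth medium (adjusted p = 1) and -0.16 ± 0.75 in MK medium (adjusted p = 1.00). RHOB was itself higher in MK than in growth medium, by 2.86 ± 0.75 with siRHOB (adjusted p = 0.00772) and by 2.18 ± 0.73 with siNC (adjusted p = 0.0248), the second of which was lost without MK siNC replicate 3 (1.48, adjusted p = 0.104), growth siNC replicate 2 (0.0599) or growth siNC replicate 3 (0.0653). Replicate 3 stood apart in every group: the SD over all tested genes of its log2 difference from the mean of the other two was 0.70, 0.83, 0.65 and 0.67 in MK siRHOB, MK siNC, growth siRHOB and growth siNC, against 0.38, 0.39, 0.47 and 0.43 between replicates 1 and 2. Of 10 megakaryocyte markers, 10 had reads in the MK groups, with a summed level of 1454 to 1689 CPM in MK siRHOB and 1348 to 1690 CPM in MK siNC libraries. In the growth groups 8 had reads, and GP9 and PF4 were at 0. The summed level there was 110.5 to 147 CPM with siRHOB and 107 to 202 CPM with siNC. A mean over 1 CPM was reached by 6 of the 10 in each of the 4 groups. ITGB3 alone averaged 829 CPM in MK siRHOB and 805 CPM in MK siNC. GP5 had 13 and 10 reads in MK siRHOB and MK siNC, against 8 and 10 in growth siRHOB and growth siNC. Of the 10, 7 were tested and all 7 rose in MK medium with either siRNA. Over all genes tested, 31.0% rose with siRHOB and 30.5% with siNC. GP9, a subunit of the receptor for VWF, had 2 reads in replicate 3 of each MK group and 0 reads in the other MK libraries. PF4 is both one of the 9 genes and one of these markers, and most of the markers are also in the membrane list.

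Of the 9 genes, 7 had enough reads to be tested, and PF4 and F13A1 did not. In MK over growth medium, 5 of the 7 were higher and 0 lower in siRHOB cells (edgeR, adjusted p under 0.05), against a background of 31.0% higher and 29.1% lower of the 14026 genes tested. In siNC cells 6 of the 7 were higher and 0 lower, against a background of 30.5% higher and 28.4% lower. The genes called in both were THBS1, MMRN1, PPBP, VWF and PDGFA, and SELP was called with siNC and not with siRHOB. Whether SELP differed between the arms could not be estimated, because both growth groups had 0 reads. The median log2 change of the 7 genes was 6.10 in siRHOB and 5.36 in siNC cells with VWF and SELP at the bounds of their pooled reads. With the fitted values it was 6.48 and 6.21, against 0.05 and 0.06 over all genes tested. In 6 of the 7 genes with siRHOB and in 7 of 7 with siNC, every MK library lay above every growth library, which held for 35.6% and 34.3% of all genes tested. Since VWF, SELP, PPBP and MMRN1 passed the filter on low counts through the MK libraries alone, these counts describe the genes and support nothing further.

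**Figure D1:**
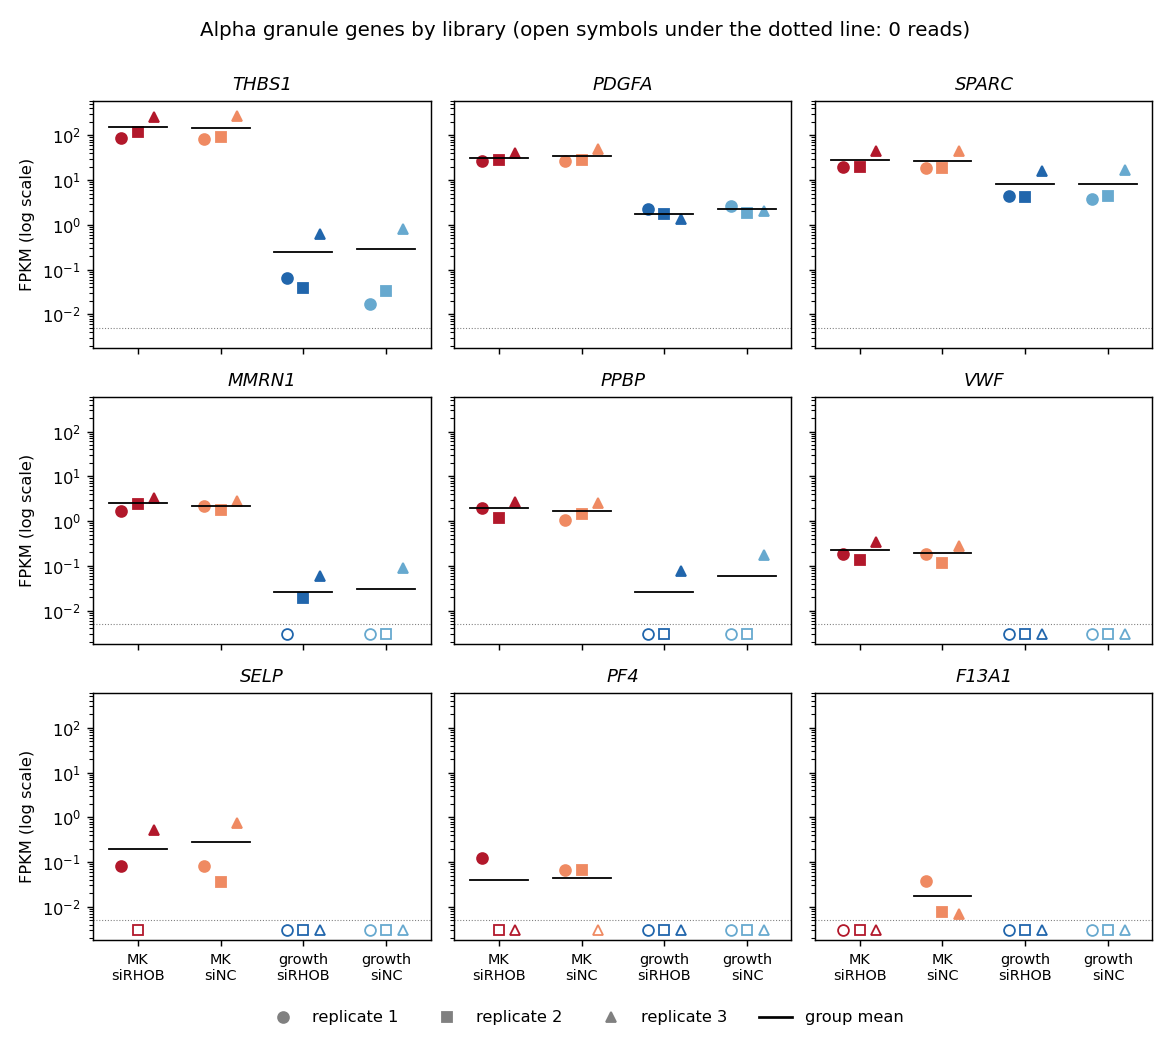
Level of each of the 9 genes in FPKM, on a log scale, in every library by group, with replicates as symbols, the group mean as a bar and libraries with 0 reads as open symbols under the dotted line. THBS1 reached 254 and 269 FPKM in MK replicate 3 with siRHOB and siNC, and VWF, SELP, PF4 and F13A1 had 0 reads in all 6 growth libraries.

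Among the adhesive proteins, THBS1 encodes thrombospondin-1, a large matrix glycoprotein that makes up a major share of released alpha granule protein. It had 89.6, 119.9 and 254 FPKM in MK siRHOB libraries and 82.0, 92.5 and 269 FPKM in MK siNC libraries. It had 0.0643, 0.0392 and 0.626 FPKM in growth siRHOB libraries and 0.0168, 0.0332 and 0.811 FPKM in growth siNC libraries. THBS1 was the most abundant of the 9 genes in all 6 MK libraries and came after SPARC and PDGFA in all 6 growth libraries, and no MK library came near a growth library. Among all 19225 genes its rank by FPKM was 160 to 862 in MK libraries and 10717 to 13754 in growth libraries. On the log2 scale THBS1 was 9.28 ± 1.47 higher in MK medium with siRHOB (SE, adjusted p = 0.000365) and 9.02 ± 1.45 higher with siNC (adjusted p = 0.000427). Its reads in growth medium came mostly from replicate 3, 181 of 211 with siRHOB and 252 of 270 with siNC. Without growth siRHOB replicate 3 the log2 change in siRHOB cells was 11.4, and without growth siNC replicate 3 that in siNC cells was 12.4. Without MK siNC replicate 3 the change in siNC cells was 8.23.

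MMRN1 encodes multimerin-1, a soluble protein that binds and stores factor V in alpha granules. It had 1.71, 2.46 and 3.36 FPKM in MK siRHOB libraries and 2.13, 1.76 and 2.74 FPKM in MK siNC libraries. It had 0, 4 and 12 reads in growth siRHOB libraries and 0, 0 and 19 reads in growth siNC libraries, where the highest library was at 0.0891 FPKM. The media did not overlap. MMRN1 was higher in MK medium by 6.48 ± 1.12 on the log2 scale with siRHOB (adjusted p = 0.000601) and by 6.21 ± 1.10 with siNC (adjusted p = 0.000742). By reads alone the ratio was 89.1 with siRHOB (95% exact counting interval 54.7 to 156) and 76.9 with siNC (49.0 to 128). Without growth siRHOB replicate 3 the log2 change with siRHOB was 7.80, and without growth siNC replicate 2 that with siNC was 5.58. All growth reads with siNC came from replicate 3, so without it that group was at 0 reads, and the call held (adjusted p = 9.81e-05).

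VWF encodes von Willebrand factor, which tethers platelets to the vessel wall and is made only by megakaryocytes and endothelial cells. It had 64, 51 and 107 reads in MK siRHOB libraries and 57, 36 and 89 reads in MK siNC libraries, against 0 reads in all 6 growth libraries. Its level in MK medium stayed low, at 0.187, 0.138 and 0.347 FPKM with siRHOB and 0.185, 0.118 and 0.272 FPKM with siNC. A count of 0 over the 3 growth libraries allowed up to 0.0253 CPM with siRHOB and 0.0222 CPM with siNC. Against that limit of 3 reads over the group, VWF was at least 74.1-fold higher in MK medium with siRHOB (adjusted p = 0.000143) and at least 75.4-fold higher with siNC (adjusted p = 0.000159). With any 1 library left out, the bound was at least 48.5-fold with siRHOB, without growth replicate 3, and at least 46.6-fold with siNC, without growth replicate 2.

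VWF is also an endothelial gene, so the endothelial markers are given beside it. Of 10 endothelial markers, 9 had reads in the MK groups and 6 in the growth groups. Their summed level was 39.6 to 162 CPM in MK siRHOB, 37.6 to 181 CPM in MK siNC, 3.84 to 5.76 CPM in growth siRHOB and 3.39 to 6.62 CPM in growth siNC libraries. EMCN was at 0 in all libraries, and CDH5, the cadherin that defines endothelium, had reads only in MK replicate 3, at 1.68 CPM with siRHOB and 2.43 CPM with siNC. Of the 10, 5 were tested and 3 rose with either siRNA, TIE1, ESAM and PECAM1, which are named after their values were seen, and platelets also carry ESAM and PECAM1. The share that rose over all genes tested was 31.0% with siRHOB and 30.5% with siNC. TIE1, an endothelial receptor kinase, averaged 51.2 ± 57.0 CPM in MK siRHOB and 55.4 ± 71.9 CPM in MK siNC libraries, and 0.342 ± 0.279 CPM in growth siRHOB and 0.415 ± 0.465 CPM in growth siNC libraries (SD, n = 3). The part of these transcripts in the VWF result was not tested.

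SELP encodes P-selectin, a receptor of the granule membrane that reaches the platelet surface on activation and binds leukocytes. It had 10, 0 and 57 reads in MK siRHOB libraries and 9, 4 and 86 reads in MK siNC libraries, against 0 reads in all 6 growth libraries. SELP reads were concentrated in replicate 3 of both MK groups, at 0.515 and 0.732 FPKM, and MK siRHOB replicate 2 could not be told from growth medium. In reads pooled over the group, against a floor of 3 growth reads, SELP was 22.4-fold higher in MK medium with siRHOB. It did not pass the test there (adjusted p = 0.0611), though it passed with the replicate number as a block (adjusted p = 0.00322). With siNC the pooled value was 41.0-fold, and SELP passed (adjusted p = 0.0435). These pooled values leave out the spread between libraries, so they are not lower bounds on the group change. The 95% interval of the fitted log2 change began at 0.567 with siRHOB and at 1.38 with siNC. Without replicate 3 of the MK group, the pooled values were 4.78-fold with siRHOB and 8.23-fold with siNC. The siNC call was also lost without MK siRHOB replicate 1 (adjusted p = 0.0589), MK siNC replicate 1 (0.0507) or replicate 3 (0.121), and without growth siNC replicate 1 (0.0806), replicate 2 (0.0856) or replicate 3 (0.0739). With siRHOB, leaving out MK siRHOB replicate 2 or MK siNC replicate 3 gave an adjusted p of 0.0262 and 0.0360.

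PPBP and PF4 encode the platelet chemokines: the precursor of beta-thromboglobulin and NAP-2, which attracts neutrophils, and platelet factor 4, which binds heparin. PPBP had 1.99, 1.17 and 2.72 FPKM in MK siRHOB libraries and 1.05, 1.42 and 2.52 FPKM in MK siNC libraries. It had 0, 0 and 4 reads in growth siRHOB libraries and 0, 0 and 10 reads in growth siNC libraries. All PPBP reads in growth medium were thus in replicate 3, and even these libraries, at 0.0766 and 0.178 FPKM, lay far below the lowest MK library. PPBP was higher in MK medium by 6.10 ± 1.28 on the log2 scale with siRHOB (adjusted p = 0.00174) and by 4.78 ± 1.15 with siNC (adjusted p = 0.00425). By reads alone the ratio was 72.3 with siRHOB (95% counting interval 27.9 to 267) and 29.1 with siNC (15.5 to 61.5). Without growth siNC replicate 2 the log2 change with siNC was 4.16. Without growth replicate 3 of the same siRNA, the growth group was at 0 reads and the calls held, with adjusted p of 0.00294 for siRHOB and 0.000724 for siNC.

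PF4 had 4, 0 and 0 reads in MK siRHOB libraries and 2, 2 and 0 reads in MK siNC libraries, against 0 reads in all growth libraries. These reads were too few to test under the filter, and the MK and growth libraries overlapped at 0. Without the filter, edgeR gave an adjusted p of 0.232 with siRHOB and 0.202 with siNC. PF4 was at 0.121, 0 and 0 FPKM in MK siRHOB and 0.0669, 0.0679 and 0 FPKM in MK siNC libraries, so the other platelet chemokine, PPBP, was the more abundant per length in every MK library.

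PDGFA encodes the A chain of platelet-derived growth factor, a mitogen for mesenchymal cells. It had 26.8, 27.5 and 40.0 FPKM in MK siRHOB libraries and 27.1, 28.6 and 48.7 FPKM in MK siNC libraries. It had 2.31, 1.71 and 1.35 FPKM in growth siRHOB libraries and 2.70, 1.87 and 2.07 FPKM in growth siNC libraries. The lowest PDGFA level in an MK library lay well above the highest growth library. It was higher in MK medium by 4.06 ± 0.32 on the log2 scale with siRHOB (adjusted p = 2.37e-06) and by 3.91 ± 0.31 with siNC (adjusted p = 3.31e-06). No single library, left out in turn, moved either change by more than 1.5-fold.

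SPARC encodes osteonectin, a collagen-binding matrix protein. It had 19.2, 19.3 and 44.6 FPKM in MK siRHOB libraries and 18.7, 19.0 and 44.3 FPKM in MK siNC libraries. It had 4.43, 4.28 and 16.1 FPKM in growth siRHOB libraries and 3.88, 4.43 and 16.8 FPKM in growth siNC libraries. Replicate 3 was the highest library of every group, and growth replicate 3 came close to MK replicates 1 and 2 without reaching them. SPARC was 1.71 ± 0.70 higher on the log2 scale in MK medium with siRHOB (adjusted p = 0.0569) and 1.69 ± 0.70 higher with siNC (adjusted p = 0.0600), and so missed the threshold in both. With the replicate number as a block it passed in both, at 1.85 with siRHOB (adjusted p = 1.33e-06) and 1.85 with siNC (adjusted p = 1.47e-06). It also passed without replicate 3 of every group, at 2.03 with siRHOB (adjusted p = 8.01e-11) and 2.06 with siNC (adjusted p = 7.74e-11). Without growth siRHOB replicate 3 alone the siRHOB change was 2.56 (adjusted p = 0.0152), and without growth siNC replicate 3 alone the siNC change was 2.62 (adjusted p = 0.0117). Within pairs of libraries with the same number, SPARC was higher in MK medium by 2.00, 2.08 and 1.47 on the log2 scale with siRHOB and by 2.16, 2.00 and 1.43 with siNC.

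F13A1 encodes the A subunit of factor XIII, the enzyme that cross-links fibrin. It had 0 reads in all 3 MK siRHOB libraries, 5, 1 and 1 reads in MK siNC libraries and 0 reads in all 6 growth libraries. A count of 0 over the MK siRHOB libraries allowed up to 0.0254 CPM, and MK siNC averaged 0.0648 ± 0.0645 CPM (SD, n = 3). The gene did not pass the filter, and at this depth a difference between groups was not detectable (adjusted p without the filter, 1 for siRHOB against siNC in MK medium and 0.105 for MK against growth medium with siNC).

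**Figure D2:**
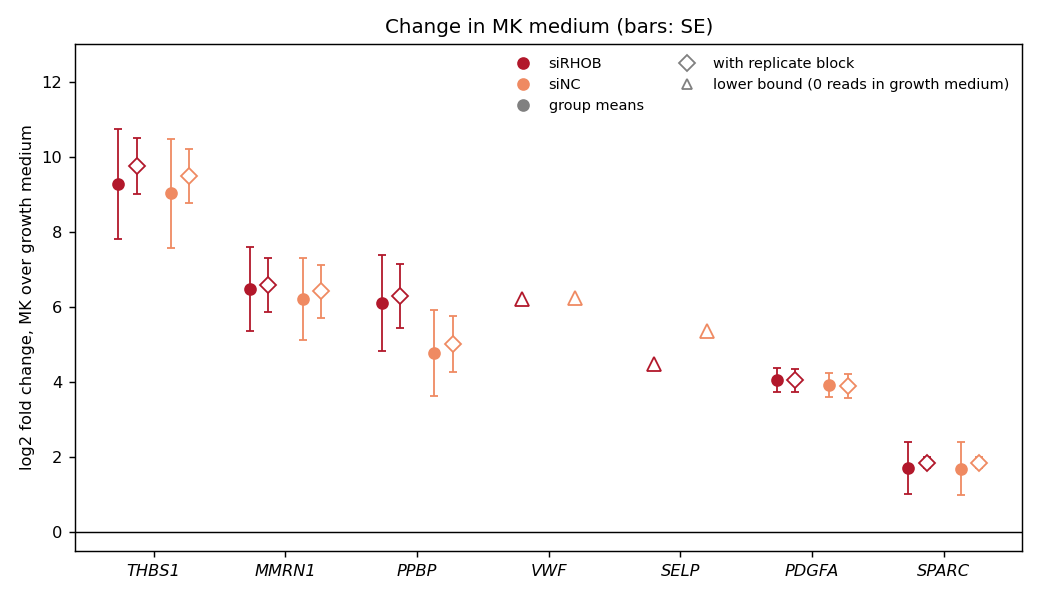
Change in MK over growth medium on the log2 scale for the 7 tested genes, with siRHOB left of siNC, group means as filled circles, the fit with the replicate number as a block as open diamonds, bars as SE and open triangles as lower bounds. The bounds are of pooled reads and leave out the spread between libraries. The SPARC values hardly move with the block, 1.71 against 1.85 with siRHOB, while the bar shrinks.

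The order of the levels differed between the media. In MK libraries THBS1 stood first, and PDGFA and SPARC followed with overlapping ranges, 26.8 to 40.0 and 19.2 to 44.6 FPKM with siRHOB and 27.1 to 48.7 and 18.7 to 44.3 FPKM with siNC. MMRN1 and PPBP overlapped with each other, as did VWF and SELP, and SELP, PF4 and F13A1. In growth libraries SPARC stood first and PDGFA second in all 6, without overlap, and THBS1 came next. The summed FPKM of the 9 genes was 139.6, 170.4 and 345 in MK siRHOB and 131, 143 and 368 in MK siNC libraries, and 6.81, 6.05 and 18.2 in growth siRHOB and 6.59, 6.34 and 19.9 in growth siNC libraries. THBS1 made up 64.2%, 70.3% and 73.5% of that sum in MK siRHOB libraries and 62.4%, 64.4% and 73.0% in MK siNC libraries. SPARC made up 65.1%, 70.8% and 88.4% in growth siRHOB libraries and 58.8%, 69.9% and 84.2% in growth siNC libraries. Without THBS1 the sum was 49.3 to 99.3 FPKM in MK libraries and 6.01 to 19.1 FPKM in growth libraries.

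**Figure D3:**
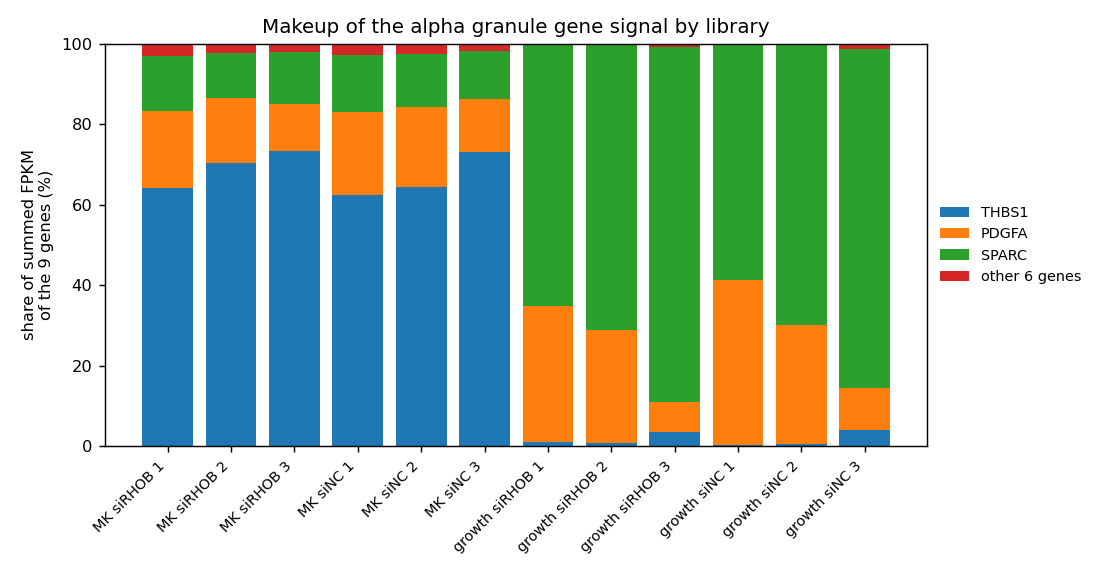
Share of the summed FPKM of the 9 genes, in percent, held by THBS1, PDGFA, SPARC and the other 6 genes in each library. THBS1 holds 62.4% to 73.5% in the 6 MK libraries, and SPARC holds 58.8% to 88.4% in the 6 growth libraries.

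Between siRHOB and siNC, 0 of the 7 tested genes passed in MK medium and 0 in growth medium, with edgeR, DESeq2 and limma alike. None had an unadjusted p under 0.05 in edgeR. In growth medium VWF and SELP could not have passed, since both groups had 0 reads. PPBP, with 4 reads with siRHOB and 10 with siNC, and MMRN1, with 16 and 19, could hardly have passed there. Over all genes, edgeR called 0 of 14026 and DESeq2 0 of 17397, and 50 genes in MK medium and 156 in growth medium had an unadjusted p under 0.05 in edgeR. Both counts lay far below a share of 0.05 of the genes tested, which would be reached if no gene differed. The fit was thus conservative for these contrasts, and the lack of calls cannot be taken to mean that the arms were alike. The intervals that follow come from the same fit, without the replicate number as a block. PDGFA was the best measured, at -0.15 ± 0.27 on the log2 scale in MK medium (95% interval -0.76 to 0.45) and -0.30 ± 0.30 in growth medium (-0.96 to 0.36). In pairs of libraries with the same number, PDGFA with siRHOB differed from siNC by -0.02, -0.05 and -0.30 in MK medium and -0.22, -0.14 and -0.60 in growth medium. These pairs share 3 replicate numbers, and how many of all genes lay on 1 side in every pair was not counted. SPARC differed by 0.01 ± 0.68 in MK medium (-1.50 to 1.52), THBS1 by 0.06 ± 1.00 (-2.16 to 2.27) and VWF by 0.21 ± 0.51 (-0.99 to 1.42). MMRN1 differed by 0.18 ± 0.81 (-1.63 to 1.98), PPBP by 0.23 ± 0.91 (-1.78 to 2.23) and SELP by -0.54 ± 1.58 (-4.31 to 3.23). In growth medium THBS1 differed by -0.20 ± 1.27 (-3.04 to 2.63) and SPARC by -0.01 ± 0.69 (-1.54 to 1.52). Apart from PDGFA, the intervals include changes of 2-fold and more in both directions for THBS1, SPARC, MMRN1, PPBP and SELP, so the data do not show that siRHOB and siNC cells were alike in these genes. The difference of the siRNA effects between the media passed for 0 of 7 genes and for 0% of all genes in edgeR. At an unadjusted p under 0.05 were 106 genes and none of the 7, again far below a share of 0.05. For VWF and SELP this difference could not be estimated, since both growth groups had 0 reads, so these genes could not have passed.

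Replicate 3 was the highest library for THBS1, SPARC, MMRN1 and PPBP in every group, and for VWF and SELP in both MK groups. Relative to the mean of replicates 1 and 2, its THBS1 level in CPM was 2.43-fold in MK siRHOB, 3.12-fold in MK siNC, 11.3-fold in growth siRHOB and 30.0-fold in growth siNC. SPARC was 2.33-fold and 2.38-fold in MK siRHOB and MK siNC, and 3.46-fold and 3.73-fold in growth siRHOB and growth siNC. SELP was 12.8-fold in MK siRHOB and 12.6-fold in MK siNC. PDGFA was 1.48-fold in MK siRHOB and 1.77-fold in MK siNC, but 0.630-fold in growth siRHOB and 0.839-fold in growth siNC. In log2 CPM with a prior count of 2, replicate 3 had the smallest change between media of the 3 pairs for THBS1, MMRN1, PPBP and SPARC and the largest for PDGFA, VWF and SELP, with either siRNA. Growth reads were 0 in all pairs of VWF and SELP, in pairs 1 and 2 of PPBP and in some pairs of MMRN1. There the change reflects only the MK level and the prior count. THBS1 was higher in MK medium by 10.2, 11.3 and 8.65 on the log2 scale in pairs 1, 2 and 3 with siRHOB and by 11.7, 11.1 and 8.39 with siNC. PDGFA was higher by 3.42, 3.91 and 4.87 with siRHOB and by 3.21, 3.82 and 4.57 with siNC. ITGB3, a megakaryocyte integrin, was also highest in growth replicate 3, at 1.26 FPKM with siRHOB and 1.87 FPKM with siNC, against 0.273 to 0.435 FPKM in the other 4 growth libraries. Its partner chain ITGA2B showed no such step, at 3.69 to 3.94 FPKM in growth siRHOB and 3.12 to 4.26 FPKM in growth siNC libraries. The part of replicate 3 in these differences was not tested beyond the values without it.

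**Figure D4:**
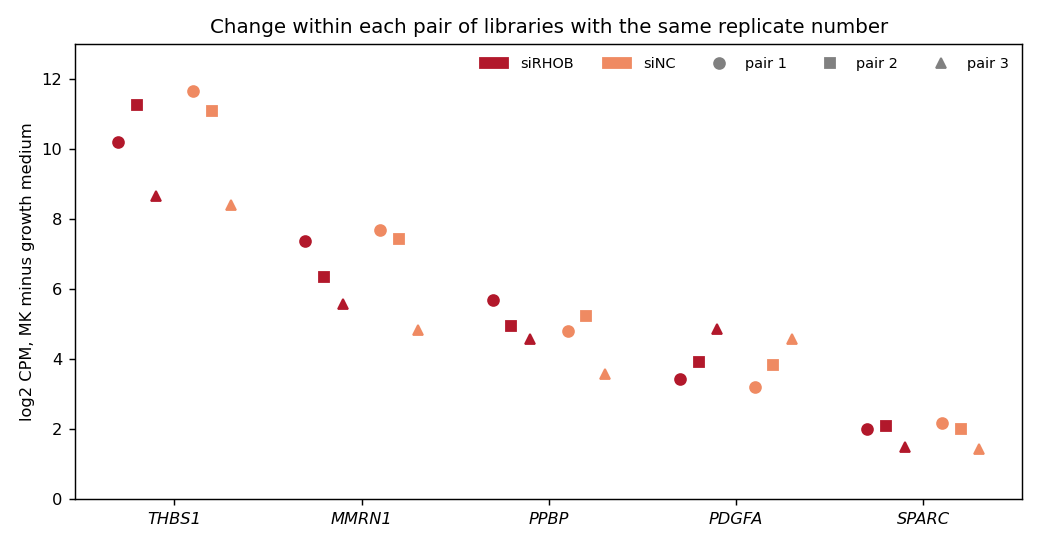
Difference in log2 CPM between the MK and the growth library with the same replicate number, for the 5 genes with reads in growth medium, with siRHOB left of siNC and pairs as symbols. Growth libraries had 0 reads in pairs 1 and 2 of PPBP and in some pairs of MMRN1, where the difference depends on the prior count. Pair 3 is the lowest for THBS1, MMRN1, PPBP and SPARC and the highest, at 4.87 and 4.57, for PDGFA.

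Other genes of the granule were read as lists. Of 31 other cargo genes, 18 were tested, and 13 rose and 0 fell in MK medium with siRHOB and with siNC alike. The median log2 changes were 2.36 and 2.08. With the replicate number as a block, 15 rose and 1 fell with either siRNA. Without replicate 3 of every group, 15 rose and 2 fell with siRHOB, and 15 rose and 1 fell with siNC. Without replicate 1, 12 of 19 tested rose with siRHOB and 11 with siNC, and without replicate 2, 10 and 11 of 18. There 0 fell. For this list and those that follow, the shares over all genes tested were 31.0% higher and 29.1% lower with siRHOB. With siNC they were 30.5% higher and 28.4% lower, and the median changes were 0.05 and 0.06. Some list genes, such as A2M and CCL5 here and ADAMTS13 among the receptors, passed the filter on low counts through the MK libraries alone. Such genes could hardly be called lower, so the list counts describe the genes and support nothing further. PDGFB, the B chain of platelet-derived growth factor, had 92.9, 99.3 and 89.7 FPKM in MK siRHOB and 92.3, 91.0 and 80.6 FPKM in MK siNC libraries, against 0.508 to 0.891 FPKM in growth siRHOB and 0.824 to 1.17 FPKM in growth siNC libraries. Its log2 change was 6.99 ± 0.23 with siRHOB (adjusted p = 4.70e-09) and 6.47 ± 0.22 with siNC (adjusted p = 9.53e-09), so the B chain stood above the A chain in every MK library and below it in every growth library. A2M, alpha-2-macroglobulin, a broad protease inhibitor, had 22.2, 25.6 and 29.4 FPKM in MK siRHOB and 20.3, 19.8 and 30.1 FPKM in MK siNC libraries, against 0 reads in growth siRHOB and 1, 2 and 2 reads in growth siNC libraries. A2M was at least 4789-fold higher in MK medium with siRHOB, or at least 3137-fold without growth siRHOB replicate 3, and its ratio with siNC was 3023 (95% counting interval 1295 to 9311). PROS1, the anticoagulant protein S, rose by 1.53 ± 0.11 with siRHOB and 1.44 ± 0.11 with siNC, and LTBP1, which holds latent TGF-beta in the matrix, by 2.92 ± 0.28 and 2.75 ± 0.27. PF4V1, the near copy of PF4, had 0 reads in all 12 libraries. The fibrinogen chain genes FGA, FGB and FGG, whose product platelets take up from plasma, had too few reads to test.

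Of 14 genes of the granule membrane and platelet surface, 11 were tested, and 10 rose and 1 fell with either siRNA, with median log2 changes of 1.90 with siRHOB and 1.74 with siNC. ITGA2B and ITGB3, the chains of the fibrinogen receptor, rose by 4.30 ± 0.27 and 8.06 ± 0.87 with siRHOB and by 4.17 ± 0.27 and 7.59 ± 0.85 with siNC. Without growth replicate 3 of the same siRNA, the ITGB3 change was 9.01 with siRHOB and 8.77 with siNC. GP6, the collagen receptor, rose by 1.90 ± 0.20 with siRHOB and 1.74 ± 0.20 with siNC, and CD63, a tetraspanin of granule and lysosome membranes, by 1.43 ± 0.18 and 1.46 ± 0.18. CD36, a scavenger receptor that binds thrombospondin-1, fell by 2.76 on the log2 scale with siRHOB (adjusted p = 0.00149) and fell by 1.44 with siNC (adjusted p = 0.0373). The siNC call, and with it the 1 lower gene of the list, was lost with limma on log2(FPKM + 0.1) (adjusted p = 0.0601) and log2(FPKM + 1) (0.112), without MK siNC replicate 1 (0.0586), 2 (0.0733) or 3 (0.101), without growth siNC replicate 3 (-0.85, 0.185), and without any 1 replicate number of every group (0.0864 to 0.141). The siRHOB call held in all 21 alternatives, with a change of -1.90 without replicate 3 of every group. CD36 is named here after its values were seen, as the single gene of the list that fell. It had 0.174, 0.182 and 0.0772 FPKM in MK siRHOB and 0.322, 0.287 and 0.194 FPKM in MK siNC libraries, against 0.546, 0.690 and 1.64 FPKM in growth siRHOB and 0.459, 0.441 and 1.24 FPKM in growth siNC libraries.

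Of 15 receptors and partners of the cargo, 10 were tested, and 9 rose and 0 fell with either siRNA, with median log2 changes of 1.42 with siRHOB and 1.40 with siNC. PDGFRB, a receptor for the PDGF chains, had 0.844, 1.28 and 1.91 FPKM in MK siRHOB and 0.837, 0.702 and 2.26 FPKM in MK siNC libraries, and 0 to 0.0455 FPKM in growth siRHOB and 0.0324 to 0.0553 FPKM in growth siNC libraries. It rose by 5.68 ± 0.81 with siRHOB (adjusted p = 0.000138) and 4.74 ± 0.76 with siNC (adjusted p = 0.000318). Its change was 6.52 without growth siRHOB replicate 2 and 5.08 without growth siRHOB replicate 3. With siNC it was lowest without MK siNC replicate 3, where the call held (adjusted p = 0.000419). ITGB5 and ITGAV, integrin chains that bind matrix proteins, rose by 3.61 ± 0.18 and 1.52 ± 0.24 with siRHOB and by 3.37 ± 0.18 and 1.43 ± 0.24 with siNC. TGM2, a tissue transglutaminase related to factor XIII, rose by 0.57 ± 0.16 with siRHOB and 0.69 ± 0.16 with siNC, and was at 56.3 to 73.5 FPKM in MK siRHOB libraries where F13A1 had 0 reads. Without replicate 1 of every group 5 genes of the list were called with either siRNA, and without replicate 2 of every group 5 with siRHOB and 4 with siNC.

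Of 13 genes for granule formation, all tested, 5 rose with either siRNA, 0 fell with siRHOB and 1, VPS33B, fell with siNC, with median log2 changes of 0.21 with siRHOB and 0.15 with siNC. That is 38.5% of the list higher, near the 31.0% and 30.5% of all genes tested. VPS33B, which sorts proteins to the forming granule and is named here after its values were seen, differed by -0.05 ± 0.08 with siRHOB (adjusted p = 0.596) and -0.22 ± 0.08 with siNC (adjusted p = 0.0284). Its siNC call was lost with RLE scaling (adjusted p = 0.0536), with limma on log2(FPKM + 0.1) (0.128) and log2(FPKM + 1) (0.125), without MK siNC replicate 1 (0.0512) or 3 (0.0552), without growth siNC replicate 1 (0.0587) or 3 (0.0747), and without any 1 replicate number of every group (0.0747 to 0.142). RAB11A and RAB5A, GTPases of recycling and early endosomes, rose by 0.62 ± 0.08 and 0.50 ± 0.12 with siRHOB and by 0.61 ± 0.08 and 0.61 ± 0.12 with siNC. GFI1B, a megakaryocyte and erythroid repressor needed for alpha granules, rose by 0.77 ± 0.17 with siRHOB and 0.80 ± 0.17 with siNC, and its siRHOB call was lost without replicate 2 of every group (adjusted p = 0.0664). VPS16, a subunit of the tethering complexes of late endosomes, rose by 0.37 ± 0.14 with siRHOB (adjusted p = 0.0329) and 0.44 ± 0.14 with siNC (adjusted p = 0.0157). The siRHOB call of VPS16 was lost without any of the 6 siRHOB libraries, with adjusted p of 0.0506 to 0.127, and the siNC call without MK siNC replicate 1 (0.0550), growth siNC replicate 1 (0.0704) or growth siNC replicate 2 (0.0506). The count of the list also moved: 3 genes were called with siRHOB without growth siRHOB replicate 2, and 3 with siNC without MK siNC replicate 1 or growth siNC replicate 1. Without replicate 2 of every group it was 2 with siRHOB and 3 with siNC, without replicate 1 it was 4 and 3, and without replicate 3 it was 6 and 8.

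Of 16 genes of the release machinery, all tested, 9 rose and 2 fell with either siRNA, with median log2 changes of 0.42 with siRHOB and 0.45 with siNC. That is 68.8% of the list called in one direction or the other, against 60.1% of all genes tested with siRHOB and 58.9% with siNC. SNAP23 and VAMP8, membrane fusion proteins of platelet granules, rose by 0.90 ± 0.07 and 0.91 ± 0.15 with siRHOB and by 0.85 ± 0.07 and 0.95 ± 0.15 with siNC. RALB, a GTPase of exocytosis, rose by 1.32 ± 0.20 with siRHOB and 1.23 ± 0.20 with siNC, and STXBP2, a partner of the fusion machinery, by 0.67 ± 0.09 and 0.52 ± 0.09. The genes that fell were RAB27A and RAB8A, GTPases of vesicle traffic named here after their values were seen. RAB27A fell by 0.53 with siRHOB (adjusted p = 0.000285) and by 0.48 with siNC (adjusted p = 0.000646), and RAB8A fell by 0.31 (adjusted p = 0.00103) and by 0.35 (adjusted p = 0.000540). Without replicate 2 of every group, 5 genes of the release list were higher and 2 lower with either siRNA. Between siRHOB and siNC, 0 genes of the 5 lists passed in either medium in edgeR.

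**Figure D5:**
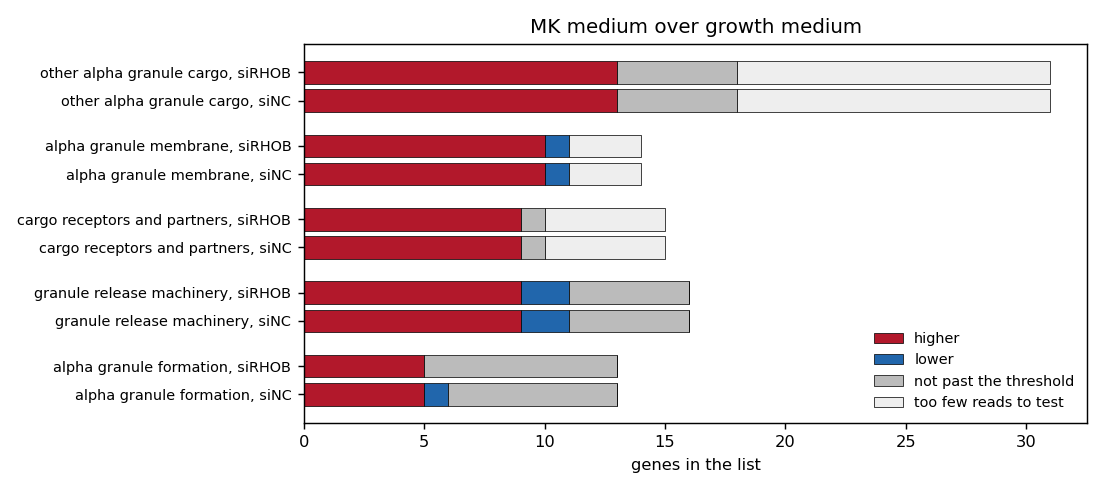
Number of genes of each list that were higher, lower, not past the threshold or not tested in MK over growth medium, with the siRHOB bar above the siNC bar. The cargo bars show 13 genes higher with either siRNA, and the formation bars show 5.

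THBS1, SPARC and PDGFA are also made by fibroblasts, so fibroblast markers are given beside them. Of 8 fibroblast markers, 6 had reads in MK siRHOB, 7 in MK siNC, 5 in growth siRHOB and 6 in growth siNC. Their summed level was 232 to 279 CPM in MK siRHOB, 220.3 to 288 CPM in MK siNC, 13.7 to 15.8 CPM in growth siRHOB and 14.8 to 17.6 CPM in growth siNC libraries. COL1A1 and COL1A2 made up nearly all of it, at 152 ± 77.0 and 94.2 ± 58.8 CPM in MK siRHOB and 148 ± 89.2 and 88.5 ± 58.1 CPM in MK siNC (SD, n = 3). COL1A1 was highest in replicate 3 of both MK groups, at 239.6 CPM with siRHOB and 251 CPM with siNC, while COL1A2 was lowest there, at 26.3 and 21.4 CPM. LUM was at 0 in both MK groups, and FAP was at 0 in MK siRHOB and averaged 0.0368 CPM in MK siNC; 5 of the 8 were tested, and 3 rose with siRHOB and 4 with siNC. The part of these transcripts in the THBS1, SPARC and PDGFA values was not tested. Of 8 monocyte markers, 7 had reads in both MK groups, and LYZ led a sum of 56.4 to 61.4 CPM in MK siRHOB, 54.4 to 61.3 CPM in MK siNC, 29.5 to 79.1 CPM in growth siRHOB and 29.1 to 76.4 CPM in growth siNC libraries; of the 5 tested, 1 rose with siRHOB and 2 with siNC. Erythroid markers did not move in 1 direction: of 9, all tested, 2 rose and 2 fell with siRHOB and 3 rose and 3 fell with siNC. Beside the counts of the fibroblast, monocyte and erythroid markers, 31.0% of all genes tested rose and 29.1% fell with siRHOB. With siNC 30.5% rose and 28.4% fell. The monocyte shares that rose, 20% and 40%, and the erythroid shares, 22.2% and 33.3%, lay near those of all genes. Erythroid levels are given next. The summed level of the erythroid markers was 1628 to 3558 CPM in MK siRHOB, 1689 to 3974 CPM in MK siNC, 1610 to 2095 CPM in growth siRHOB and 1844 to 2238 CPM in growth siNC libraries.

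The genes whose pattern was most like each of the 7 were taken by Pearson's r of log2 CPM over the 12 libraries, which form a cluster for each medium, so that r mostly reflects the medium. Closest to THBS1 were PTGS1, COL1A1 and SMAD3, each at r = 0.997, and PTGS1, the cyclooxygenase of platelets, was at 306 CPM in MK siRHOB and 308 CPM in MK siNC, against 24.0 CPM in growth siRHOB and 24.4 CPM in growth siNC. SMAD3 and COL1A1 were also the closest to PPBP, at 0.995 and 0.994, with TACC1 at 0.994. VWF was closest to FKBP14, PLA2G4E and FRMD4A, each at 0.996, and PLA2G4E, like VWF, had 0 CPM in both growth groups, against 23.3 CPM in MK siRHOB and 23.4 CPM in MK siNC. MMRN1 was closest to TNNI3 at 0.994, and to BCAS3 and ESAM at 0.993. PDGFA was closest to GADD45A at 0.997, PBXIP1 at 0.996 and C10orf128 at 0.995. SPARC was closest to RIPK1 and VSIR at 0.993 and ZNF229 at 0.990. SELP had no such close match, its highest being TMEM106B at 0.946, IGF2R at 0.945 and SLC2A12 at 0.944. VWF and SELP stood in all growth libraries at the log2 CPM that the prior count gives to 0 reads. SELP was also there in MK siRHOB replicate 2, and PPBP and MMRN1 in some growth libraries. Their r thus rests on that fixed value and on the MK levels.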

How the data were processed

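RNA was measured by poly(T)-selected sequencing in 12 libraries, grouped by their titles. The authors deposited FPKM values and unnormalised read counts, with genes given by symbol, and each column was matched to its sample by name. Per the submitters' processing notes, GRCh37.p13 was the build named and the tools included featureCounts 2.0.2, HISAT2 2.2.1 and edgeR; which step each served is not said. Neither the labels nor the headers give the strand setting or the handling of multiply mapped reads, so overlapping genes and near copies such as PF4 and PF4V1 cannot be separated with certainty. The deposited FPKM values equal counts over a fixed gene length and the column total for all 17397 genes with reads (relative tolerance 1e-06). Gene coordinates are not used here, since the reference is of another build.

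Counts were tested in edgeR 4.0.16 by its quasi-likelihood F test (R 4.3.3, limma 3.58.1), two-sided, robust, with TMM scaling, filterByExpr at a minimum count of 10, 1 fit of 4 group means, and Benjamini-Hochberg adjustment over 14026 genes at 0.05. SE was taken as the size of the log2 fold change divided by √F. TMM-scaled library sizes gave CPM, and log2 CPM used a prior count of 2. A group at 0 reads was given a floor of 3 reads over the group. Counting intervals are exact at 95%. Like the floors, they reflect only the counting of reads, which PCR can copy from 1 molecule. Alternatives were RLE scaling, no filter, DESeq2 1.42.0, the replicate number as a block, limma on log2(FPKM + 0.1) and log2(FPKM + 1), and leaving out each library or each replicate number. Code was tested on simulated counts.

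The labels give the groups the same replicate numbers. Libraries sharing a number deviated together from their group means: r was 0.151 to 0.601 in the libraries numbered 1, 0.190 to 0.476 in those numbered 2 and 0.340 to 0.834 in those numbered 3. All were over 0.1, and the numbers were taken to pair the libraries. Libraries with different numbers were not compared. Since replicate 3 stood apart in every group, replicates 1 and 2 would both deviate away from it. The values for numbers 1 and 2 therefore cannot show that these libraries were paired, and the fits with a block rest on the labels. Within groups, log2 CPM of replicates 1 and 2 correlated at 0.991 to 0.993, and no pair of libraries agreed within sampling noise (chi-square per gene of 4.21 or more).

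Named genes were the 9 genes, RHOB, 4 genes per list, ranked by adjusted p for MK over growth medium in siNC cells, and the 3 closest genes by correlation among those with at least 5 CPM in a group. The genes and lists were chosen with earlier results of these data known.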

Additional observations from a re-analysis of the deposited data

How the results depend on the processing

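The 5 genes called in both arms kept their direction and call under every alternative run, 21 in all. The count of the genes called ranged from 5 to 7 in each arm, of 7 tested, or of 9 tested with DESeq2 and without the filter. DESeq2 and the replicate block stood at 7 in both arms, and leaving out libraries at 5 to 6 with siRHOB and 5 to 7 with siNC. SELP and SPARC were the genes whose calls moved: SPARC also passed with DESeq2 (adjusted p = 0.0320 with siRHOB and 0.0348 with siNC) and with limma, and SELP with siNC lost its call with limma on log2(FPKM + 0.1) (adjusted p = 0.0905) and log2(FPKM + 1) (0.167). The block changed no call of the named genes other than SPARC in both arms and SELP with siRHOB. Over all genes, leaving out libraries gave 5121 to 9815 calls in siRHOB cells, against 8436 with all of them, and 5125 to 9568 in siNC cells, against 8256; the lowest were without replicate 2 and the highest without replicate 3. Between siRHOB and siNC in growth medium, the leave-outs gave 0 to 1 call over all genes.

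VPS33B with siRHOB, which passed under no setting, changed sign with limma on log2(FPKM + 0.1) (0.013) and log2(FPKM + 1) (0.012), and ranged from -0.13 to 0.014 when libraries were left out, the highest without replicate 2.

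No difference between siRHOB and siNC passed under any alternative for these genes, and several near 0 changed sign. On the log2 scale, with limma on log2(FPKM + 0.1), RHOB in MK medium was 0.0073, THBS1 in growth medium 0.076 and SPARC in growth medium 0.026. SPARC in growth medium was 0.019 with limma on log2(FPKM + 1) and 0.019 with the replicate block. Leaving out libraries gave ranges in MK medium of -0.50 to 0.83 for THBS1, -0.51 to 0.56 for SPARC, -0.36 to 0.18 for PDGFA, -0.082 to 0.40 for MMRN1, -0.080 to 0.66 for PPBP, -0.24 to 0.56 for VWF, -2.81 to 1.73 for SELP and -0.44 to 0.54 for RHOB. In growth medium they were -2.38 to 3.13 for THBS1 and -0.88 to 0.92 for SPARC. The cause was not tested. Per-gene values of the difference between media, and of siRHOB against siNC in growth medium for genes without reads in all 6 growth libraries, were not recomputed. With 3 libraries a group, the low counts of VWF, SELP, PF4 and F13A1 limit what can be resolved.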
